A study of Mus musculus with 16 samples.

Results

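High-fat feeding was compared with low-fat feeding in the liver of wildtype mice, using 4 of the 16 expression arrays of a study of the integrated stress response (ISR). The arrays were chosen by their labels alone, 2 from wildtype mice on a low fat diet (LFD) and 2 from wildtype mice on a high fat diet (HFD). All mice were male FvB/n, and the ISR slows protein synthesis and turns on a set of stress genes once eIF2α, a translation initiation factor, is phosphorylated. The same diets were given to Alb::GC mice, 2 arrays per diet, in which the hepatocyte-specific albumin promoter drives an active piece of GADD34, the phosphatase subunit encoded by Ppp1r15a that clears phosphate from eIF2α. These 4 arrays shared the estimate of spread and gave a second measurement of the diet. The other 8 arrays, from TTR::Fv2E-PERK mice that were untreated or given AP20187, a compound that activates the PERK kinase domain they carry, were used only where named. Age, diet composition, weeks of feeding and hour of collection are not stated in the labels. Nor do the labels tie an array to a separate animal, and the p-values therefore measure only how far these samples spread, a spread that may be technical.

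The liver takes up fatty acids from blood, makes new ones from sugar, and either oxidises them, exports them as lipoproteins or stores them as triglyceride in lipid droplets. Fatty acid and cholesterol synthesis are driven by the SREBP transcription factors, of which the cholesterol arm is shut off by sterols reaching the endoplasmic reticulum (ER). The nuclear receptor PPARγ, low in lean liver and high in fat tissue, drives genes of lipid uptake and droplet coating, and PPARα drives oxidation. Rodent liver also differs between the sexes, because pulsed growth hormone in males acts through STAT5b on genes of steroid and drug metabolism, and it carries a circadian clock that sets the daily timing of many metabolic genes.

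The deposited values are ratios around 1, one per probe set and array, so they tell how a gene moved but not how abundant its transcript was. Differences are HFD minus LFD on the log2 scale after 0.05 was added to each ratio, where 1 means 2-fold, and each is given with its standard error from limma. Of 12393 genes, 710 were higher on HFD (5.73%) and 926 were lower (7.47%) at an adjusted p under 0.05. A change of at least 2-fold was seen in 461 of the higher and 506 of the lower genes, one of at least 4-fold in 158 and 138, and one of at least 8-fold in 53 and 34. The balance of higher and lower genes depended on the processing. It was 849 and 767 with each array centred on its median, 527 and 537 after quantile normalization, and 252 and 115 with the 4 wildtype arrays alone. The median gene stood at -0.18. In all of these genes both HFD arrays lay on one side of both LFD arrays, which was also true of 63.4% of all genes. The 2 LFD arrays correlated at 0.511 over log2 values and the 2 HFD arrays at 0.655, while arrays of different diets correlated at 0.05 to 0.152. The counts leaned on having both HFD arrays. Without HFD replicate 1 there were 22 higher and 11 lower genes, and without HFD replicate 2 there were 12 and 5. Without LFD replicate 1 they were 508 and 191, and without LFD replicate 2, whose label names both genotypes in one field, 375 and 194. Of 212 named genes past the threshold, 9 held when any one array was left out, and 7 held under every alternative tried: Nnmt, Cxcl1, Lpin1, Per2, Steap4, Hsd3b5 and Cela1.

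The control probe sets at the 2 ends of long transcripts, which read RNA quality, moved with the diet. For β-actin the 3′ minus 5′ difference of the control probe sets was 0.21 and -0.03 in LFD wildtype and -0.62 and -0.71 in HFD wildtype on the log2 scale. For Gapdh it was 0.22 and 0.16 on LFD against -0.31 and -0.22 on HFD. Both HFD arrays thus lay below both LFD arrays in both controls, the HFD arrays of Alb::GC mice did so too, and diet and this difference cannot be told apart. In bulk liver RNA, a change in the number of cells of a type and a change in RNA per cell cannot be told apart either.

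Genes of lipid uptake and storage rose in part. This and all later lists were chosen with earlier results of these data known, so their shares describe and do not test. Of 20 measured genes of fatty acid uptake and lipid droplets, 8 rose and none fell, 40% against 5.73% of all genes, with a median difference of 0.53 against -0.18 for all genes. Cidea, a droplet protein of brown fat that fuses small droplets into large ones, had ratios of 0.33 and 0.61 on LFD and 64.42 and 60.39 on HFD, a rise of 6.96 ± 1.25 (adjusted p = 0.0217). It was the largest rise of any named gene. Its relative Cidec (Fsp27), a PPARγ target that acts in the same way, went from 1.08 and 0.79 to 15.87 and 14.73, a rise of 3.98 ± 0.27 (adjusted p = 0.00326). Pparg itself, the gene of PPARγ, went from 1.13 and 1.88 to 6.13 and 6.02, a rise of 2.02 ± 0.35 (adjusted p = 0.0203). Cd36, the fatty acid transporter of the plasma membrane, went from 0.43 and 0.79 to 13.59 and 13.42, a rise of 4.42 ± 0.40 (adjusted p = 0.00593). For these 4 genes the 2 HFD arrays lay close together and far above both LFD arrays. The 2 LFD ratios of Cidea, Cd36 and Pparg differed more in proportion.

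The other 4 were coat proteins of droplets, a lipoprotein receptor and a lipid carrier. Plin4, a perilipin that coats nascent droplets, went from 0.65 and 0.8 to 4.78 and 5.91 (2.80 ± 0.44, adjusted p = 0.0163). Vldlr, the receptor for triglyceride-rich lipoproteins, went from 0.73 and 0.45 to 4.34 and 3.45 (2.65 ± 0.24, adjusted p = 0.00599), and of its 3 other probe sets 1 also rose (1.86) while 2 stood at 0.90 and 1.92 without passing. Fabp4, the fatty acid binding protein of adipocytes and macrophages, went from 0.71 and 0.56 to 2.5 and 2.4 (1.88 ± 0.19, adjusted p = 0.00637), and of its 3 other probe sets 1 also rose (1.48) while 2 stood at -0.24 and -0.53 without passing. Plin3 went from 1.0 and 1.06 to 2.08 and 2.33 (1.06 ± 0.15). Plin2, the usual coat of liver droplets, was at 1.36 and 1.14 on LFD and 0.93 and 1.01 on HFD and did not pass (adjusted p = 0.211), and Plin5 at -0.44 ± 0.28 did not either. The list held 5 and 6 higher members without LFD replicate 1 or 2, and 1 without either HFD array, with a median between 0.48 and 0.68 in these 4 fits. Of 9 measured adipocyte markers only Fabp4 rose (11.1%, against 5.73% of all genes). The summed ratio of that list was 7.35 and 7.85 on LFD and 9.77 and 10.74 on HFD, and its part in these results was not tested.

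**Figure D1:**
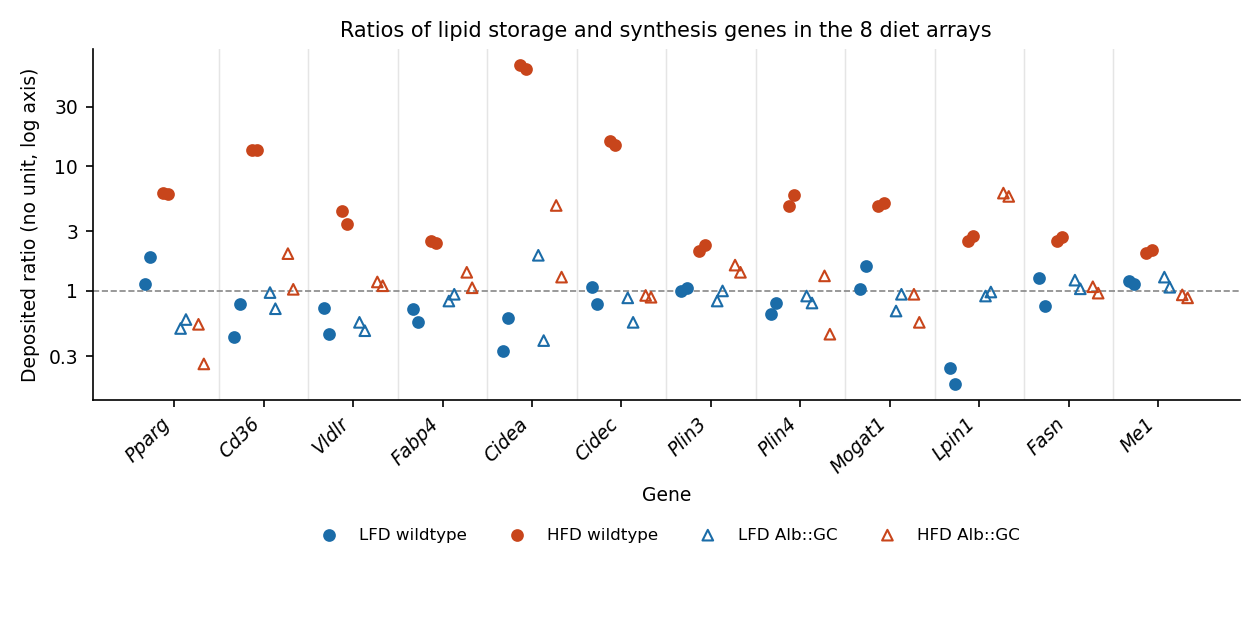
Deposited ratios (log axis, no unit) of 12 genes of lipid uptake, storage and synthesis in the 8 diet arrays. Each point is 1 array, filled circles are wildtype and open triangles Alb::GC, blue is LFD and red HFD, and the dashed line marks a ratio of 1. The red circles stand above the blue ones in every gene shown, at 64.42 and 60.39 for Cidea, while the red triangles of Cidec and Pparg lie at 0.26 to 0.92.

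Triglyceride and fatty acid synthesis rose in part. Lpin1, the phosphatidate phosphatase that makes diacylglycerol and also a coactivator of PPARα, went from 0.24 and 0.18 to 2.53 and 2.78, a rise of 3.39 ± 0.16 (adjusted p = 0.002) that held whichever array was left out. Mogat1, which makes diacylglycerol from monoacylglycerol, went from 1.04 and 1.59 to 4.81 and 5.11 (1.91 ± 0.31). These were the 2 of 10 triglyceride synthesis genes that rose (20%, against 5.73% of all genes). Of 17 fatty acid synthesis genes 5 rose and 1 fell (29.4% and 5.88%, against 5.73% and 7.47% of all genes), with a median of 0.66. Fasn, the fatty acid synthase, went from 1.26 and 0.76 to 2.5 and 2.7 (1.36 ± 0.24, adjusted p = 0.0205). Thrsp, Fads2, Pklr and Me1, which take part in lipogenic signalling, desaturation, pyruvate supply and NADPH supply, rose by between 0.79 and 1.77. Srebf1 (1.15 ± 0.32), Acaca (1.49 ± 0.46) and Acly (0.66 ± 0.20) had both HFD arrays above both LFD arrays and did not pass (adjusted p = 0.0591, 0.075 and 0.0712). The 4 other probe sets of Acly split, 1 rising by 1.49 and 1 falling by 1.06 on the log2 scale, so no direction is given for it. Scd1, the main liver desaturase, was at 1.41 and 1.35 against 1.37 and 1.56 at the probe set used (0.08 ± 0.14), while another rose by 2.02 (adjusted p = 0.0106). The gene that fell, Elovl3, elongates very long chain fatty acids and is also male-biased. The fatty acid synthesis list had 5 and 3 higher members without LFD replicate 1 or 2 and none without either HFD array.

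Fatty acid oxidation was mixed. Of 33 genes 7 rose and 1 fell (21.2% and 3.03%, against 5.73% and 7.47% of all genes), yet the median was 0.07. The risers were mostly regulators and enzymes outside the mitochondrial spiral of β-oxidation. Ppara went from 1.15 and 0.87 to 6.85 and 6.16 (2.64 ± 0.56, adjusted p = 0.0319), and Ppargc1a, the coactivator PGC-1α, from 0.61 and 0.46 to 1.61 and 1.32 (1.38 ± 0.22). Vnn1, a pantetheinase and PPARα target, went from 0.17 and 0.48 to 4.1 and 4.12 (3.61 ± 0.46, adjusted p = 0.00977). Acot3, a peroxisomal acyl-CoA thioesterase, went from 0.2 and 0.22 to 2.11 and 1.97 (3.01 ± 0.39), and Acot4, Aldh3a2 and Pex11a rose by 0.99, 1.32 and 1.17. Cpt1a, the entry step into mitochondria, was at 0.25 ± 0.18 and Ehhadh at 0.37 ± 0.25, and neither passed (adjusted p = 0.371 and 0.341). The 2 other probe sets of Cpt1a did rise, by 3.02 and 1.21 (adjusted p = 0.0351 and 0.0235). Cyp4a14, an ω-hydroxylase that follows PPARα, lay at 0.02 and 0.33 on LFD and 1.62 and 1.57 on HFD, and its difference of 3.33 ± 0.89 just missed the threshold (adjusted p = 0.0554). The count of 7 became 4 and 5 without an LFD array and 0 without an HFD array.

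Genes of carbohydrate metabolism moved both ways. Of 16 glycolysis and glycogen genes 6 rose, 1 fell and 9 did not pass (37.5% higher and 6.25% lower), with a median of 0.30. Gbe1, the glycogen branching enzyme, went from 0.84 and 0.86 to 2.71 and 3.16 (1.73 ± 0.15, adjusted p = 0.00593), and Gys2, liver glycogen synthase, from 1.04 and 0.92 to 2.15 and 2.09 (1.08 ± 0.15). Ppp1r3c, a subunit that directs protein phosphatase 1 to glycogen, went the other way, from 2.73 and 1.99 to 0.36 and 0.46 (-2.38 ± 0.22, adjusted p = 0.00599). Igfbp1, a secreted binder of insulin-like growth factors that insulin represses, fell from 0.83 and 1.31 to 0.14 and 0.1 (-2.70 ± 0.41, adjusted p = 0.0155). G6pc, the last step of glucose release, fell from 1.35 and 1.41 to 0.43 and 0.53 (-1.44 ± 0.19), whereas Pck1 stood at 0.94 ± 0.28 without passing. Foxo1, the factor that insulin excludes from the nucleus, rose by 1.51 ± 0.19 at the probe set used, while 3 others stood between -0.18 and 0.98 without passing. Glucose production as a list held 3 higher and 3 lower of 15 (20% each way). Insulin signalling held 4 higher and none lower of 17 (23.5% higher), namely Trib1, Foxo1, Socs3 and Pik3r1, a regulatory subunit of PI3 kinase. The median of that list was -0.07, and 10 of the 17 lay below 0. Another probe set of Trib1 stood at -0.40, and others of Socs3 at 0.26 and 0.86 without passing. Without HFD replicate 1 or 2 the glycolysis and glycogen list had 1 and 0 higher members, and with LFD replicate 1 or 2 left out 7 and 2.

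Genes of cholesterol synthesis fell in part. Of 20 measured genes 8 fell, none rose and 12 did not pass, 40% against 7.47% of all genes, and 18 of the 20 lay below 0 with a median of -0.96. They span the pathway from mevalonate to sterols. Mvk, mevalonate kinase, went from 2.71 and 1.94 to 0.6 and 0.36 (-2.18 ± 0.37, adjusted p = 0.0185), although another of its probe sets stood at 0.11. Mvd, which makes isopentenyl diphosphate, fell by 2 ± 0.41 on the log2 scale, and Idi1, which isomerises it, went from 2.03 and 1.09 to 0.26 and 0.2 (-2.47 ± 0.41, adjusted p = 0.0176). Sqle, squalene epoxidase, went from 1.63 and 0.99 to 0.22 in both HFD arrays (-2.29 ± 0.49, adjusted p = 0.0334). The later sterol steps followed, with Cyp51 at -2.08 ± 0.38, Msmo1 at -2.36 ± 0.41, Nsdhl at -1.47 and Tm7sf2 at -1.41. For every one of the 8 both HFD arrays lay below both LFD arrays. Hmgcs1, Fdps and Fdft1 stood at -0.94, -1.04 and -0.98 and did not pass (adjusted p = 0.0792, 0.0562 and 0.0552). Another probe set of Hmgcs1 and another of Fdft1 fell, by 1.33 and 1.49 on the log2 scale. LFD replicate 1 had the higher ratio in each of these genes, and without it only 1 member passed, with a median of -0.76. The count was 4 without LFD replicate 2 and 0 without either HFD array. Alb::GC mice gave a median of -1.001, from arrays that the wildtype difference did not use. They gave 7 lower members, called with the estimate of spread that both genotypes shared.

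Male-biased genes fell and female-biased genes rose in these male livers. The list called male-biased here held 15 measured genes that are male-biased in mouse liver or answer to growth hormone and STAT5b. Of these 11 fell and none rose, 73.3% against 7.47% of all genes, with a median of -0.83. Like the others, this list was chosen with earlier results of these data known, so the share is a description only. Hsd3b5, a steroid-reducing enzyme made almost only by male liver, had ratios of 2.12 and 1.8 on LFD and was listed at 0.01, the smallest value deposited, in both HFD arrays. Its difference of -5.06 ± 0.33 (adjusted p = 0.00326) therefore depends on the constant added, and was -6.62 with 0.01 and -3.36 with 0.2. Elovl3 went from 4.28 and 3.7 to 0.34 and 0.38 (-3.30 ± 0.26, adjusted p = 0.0044), and Cyp7b1, an oxysterol hydroxylase, from 1.4 and 1.04 to 0.16 and 0.17 (-2.55 ± 0.32, adjusted p = 0.00933). Ugt2b38, a glucuronosyltransferase, went from 11.79 and 4.66 to 0.16 and 0.33 (-4.72 ± 0.51), C6 of complement from 1.34 and 0.91 to 0.2 and 0.18 (-2.27 ± 0.27), and the organic anion carrier Slco1a1 from 1.24 and 1.16 to 0.3 and 0.33 (-1.78 ± 0.21). Igfals, the carrier subunit for IGF1, Cish, a feedback inhibitor induced by STAT5, Cyp2d9, Gstp1 and Cyp4a12a also fell, at -0.83 for Igfals to -0.575 for Cyp4a12a. Ugt2b37, close to Ugt2b38 in sequence and not on the list, went from 2.47 and 2.53 to 0.11 and 0.17, and how the probe sets divide such paralogs was not tested.

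Among 13 female-biased genes 7 rose and 1 fell, 53.8% against 5.73% of all genes, with a median of 3.05. Cyp2b9, a P450 of female liver, went from 0.45 and 0.63 to 10.97 and 11.65 (4.28 ± 0.35, adjusted p = 0.00499). Hao2, a hydroxyacid oxidase, went from 0.32 and 0.91 to 20.78 and 22.02 (5.17 ± 0.73, adjusted p = 0.0124). Fmo2, a flavin monooxygenase, went from 0.23 and 0.12 to 2.98 and 3.09 (3.82 ± 0.35), and of its 2 other probe sets 1 rose by 2.69 and 1 stood at 0.19. Abcd2, a peroxisomal transporter of very long chain fatty acids, rose by 3.59 ± 0.49, Cyp17a1, a steroid hydroxylase, by 3.05 ± 0.51, and Acot3 and Trim24 by 3.01 and 2.15. The member that fell was Cyp3a16, from 0.57 in both LFD arrays to 0.03 and 0.15. Cyp2b13 had the highest ratios of all, 1.73 and 1.32 on LFD against 117.2 and 131 on HFD. It did not pass (6.31 ± 8.34, adjusted p = 0.631), because limma's variance trend gave 4 probe sets at extreme means a standard error above 2. With a single variance prior its error was 0.80 and its adjusted p 0.0116, and this gene was singled out after its values were seen. The male-biased count was 6 without either LFD array and 1 without either HFD array, the female-biased one 6 and 7, then 1 and 0. The medians lay between -0.94 and -0.71 and between 2.45 and 3.46 over all alternatives.

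**Figure D2:**
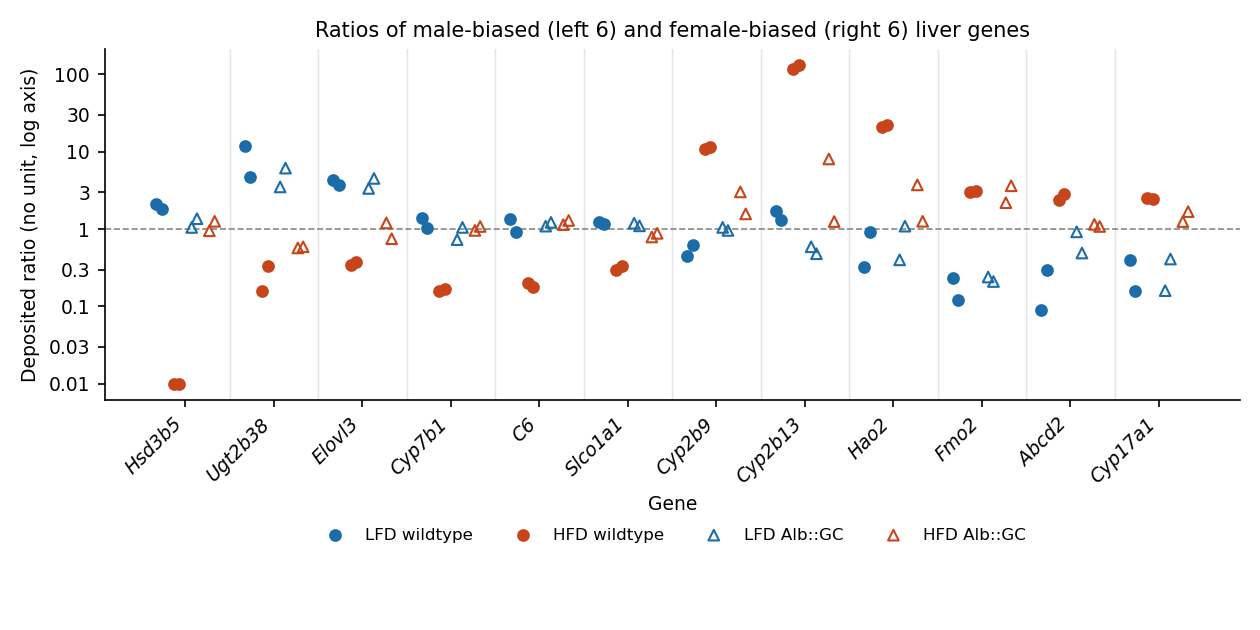
Deposited ratios (log axis, no unit) of 6 male-biased and 6 female-biased liver genes in the 8 diet arrays, drawn as in the plot of lipid genes. In wildtype the HFD circles lie below the LFD circles in all 6 male-biased genes and above them in all 6 female-biased genes, while for Hsd3b5, Cyp7b1 and C6 the 4 triangles of Alb::GC lie at 0.73 to 1.36.

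The wider drug and sterol metabolising families moved both ways. Of 34 P450 genes, some of them shared with the lists above, 6 rose and 9 fell (17.6% and 26.5%, against 5.73% and 7.47% of all genes). The conjugating enzymes held 3 higher and 9 lower of 36 (8.33% and 25%). Cyp3a13 went from 0.86 and 0.83 to 2.65 and 2.94 (1.67 ± 0.17), whereas Cyp2c54 went from 1.22 and 1.14 to 0.27 and 0.31 (-1.86 ± 0.24) and Cyp2c70, which makes the muricholic bile acids of mice, from 2.01 and 1.42 to 0.45 and 0.5 (-1.73 ± 0.21). Cyp2c37 lay at 1.06 and 1.48 on LFD and 14.48 and 15.02 on HFD, and like Cyp2b13 it carried an inflated standard error (adjusted p = 0.716, and 0.00337 with a single prior). Sult5a1, a sulfotransferase, fell by 2.26 ± 0.30 on the log2 scale, and the glutathione transferases Gstm6 and Gsta2 by 1.70 and 1.52. Papss2, which makes the sulfate donor, rose by 1.42 at the probe set used and fell by 2.05 on the log2 scale at another (adjusted p = 0.0127 and 0.0188), so no direction is given for it. Of 23 bile acid genes 4 fell and 2 rose (17.4% and 8.7%). The falls were Cyp7b1, Slco1a1, Cyp8b1, which sets the share of cholic acid (-1.01 ± 0.21), and Cyp27a1, the first enzyme of the alternative pathway (-0.99 ± 0.19). Abcc2, the canalicular exporter, rose from 1.09 and 0.69 to 3.47 and 3.57 (1.96 ± 0.26), and Nr1h4, the bile acid receptor FXR, by 0.78 ± 0.17. Cyp7a1, the rate-limiting enzyme of the classic pathway, stood at 1.18 ± 0.42 and did not pass (adjusted p = 0.107). NRF2 targets gave 1 higher and 1 lower of 14 (7.14% each, near the share of all genes), with Gclc up and Osgin1 going from 4.28 and 3.11 to 0.8 and 0.86. All of these counts fell to 1 or 0 in each direction without either HFD array.

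Clock genes shifted in part, and because the hour of collection is not given, diet and hour cannot be told apart. Of 20 clock genes 9 rose and 2 fell, 45% and 10% against 5.73% and 7.47% of all genes. Per2, a repressor of the loop, went from 0.57 and 0.47 to 3.52 and 3.9 (2.73 ± 0.19, adjusted p = 0.00342) and held whichever array was left out. The output factors Dbp, Tef and Hlf, which bind the same DNA motif, rose by 2.37 ± 0.27, 1.47 ± 0.13 and 1.72 ± 0.12 (adjusted p = 0.00755, 0.00593 and 0.00353). Dbp went from 1.34 and 0.95 to 5.82 and 6.24. Of the other probe sets, 1 of Tef rose by 3.24, while another of Tef and one of Hlf stood at -0.08 and -0.06. Usp2, a deubiquitinase driven by the clock, went from 0.64 and 0.41 to 2.77 and 2.66 (2.29 ± 0.20), and Per1, Cry2, Nr1d2 and Rora rose by 1.31, 1.77, 0.94 and 1.08. The 2 that fell, Arntl and Npas2, are activators of the loop. Arntl (BMAL1) went from 1.09 and 0.9 to 0.2 and 0.22 (-2.002 ± 0.36, adjusted p = 0.0217), and Npas2 from 1.23 and 1.1 to 0.15 and 0.45 (-1.94 ± 0.47, adjusted p = 0.0437). The called repressors and outputs were thus high where these 2 activators were low, and 9 of the 20 genes did not pass. The list held 9 and 7 higher members without LFD replicate 1 or 2, 2 without either HFD array, and no lower member in any of the 4.

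BMAL1 and its partner CLOCK act through the E-box, whose letters are CACGTG on either strand. It was searched for in the 250 bases before each RefSeq gene start of build GRCm38.p6, where 6.86% of 27025 genes hold it. Of the 9 clock genes that rose 8 had a promoter in the table, and 2 held the motif, Per1 and Tef, as did 2 of 7 clock genes that did not pass. Their windows are shown because they are the clock genes that rose with the motif near a start, Per1 at chr11:69098699-69098948 and Tef at chr15:81802423-81802672 and, for its second start, chr15:81811164-81811413, all on the plus strand. Each is written 5′ to 3′ in lower case and ends at the base before the start, with the E-box in capitals, 166, 127 and 138 bases before it. A gene counted if any of its windows held the motif. The window of a second Per1 start, chr11:69099902-69100151, held none and is not shown.
Per1: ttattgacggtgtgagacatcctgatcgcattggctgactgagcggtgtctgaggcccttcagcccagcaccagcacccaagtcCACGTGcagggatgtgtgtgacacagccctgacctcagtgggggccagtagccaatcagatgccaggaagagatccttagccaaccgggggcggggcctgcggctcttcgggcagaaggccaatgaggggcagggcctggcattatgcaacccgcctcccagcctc
Tef first start: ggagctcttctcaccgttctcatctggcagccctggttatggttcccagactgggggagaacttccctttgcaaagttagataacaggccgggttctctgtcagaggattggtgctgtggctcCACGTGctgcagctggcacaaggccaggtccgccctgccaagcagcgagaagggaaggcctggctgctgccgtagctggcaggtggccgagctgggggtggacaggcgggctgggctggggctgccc
Tef second start: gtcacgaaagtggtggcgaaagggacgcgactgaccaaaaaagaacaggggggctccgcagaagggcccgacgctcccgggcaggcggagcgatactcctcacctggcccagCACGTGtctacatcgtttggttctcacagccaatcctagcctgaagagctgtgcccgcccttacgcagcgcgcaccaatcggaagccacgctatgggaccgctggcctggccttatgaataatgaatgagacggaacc
The D-box TTATGTAA bound by Dbp, Tef and Hlf was in no window of the 8 genes that rose (0.977% of all genes), and the RORE core TAGGTCA in no window of the 2 genes that fell (2.55%). Among cholesterol genes that fell, 7 had a promoter, and none held the sterol element TCACNCCAC (1.22% of all genes). No match says only that these letters are not in this window.

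**Figure D3:**
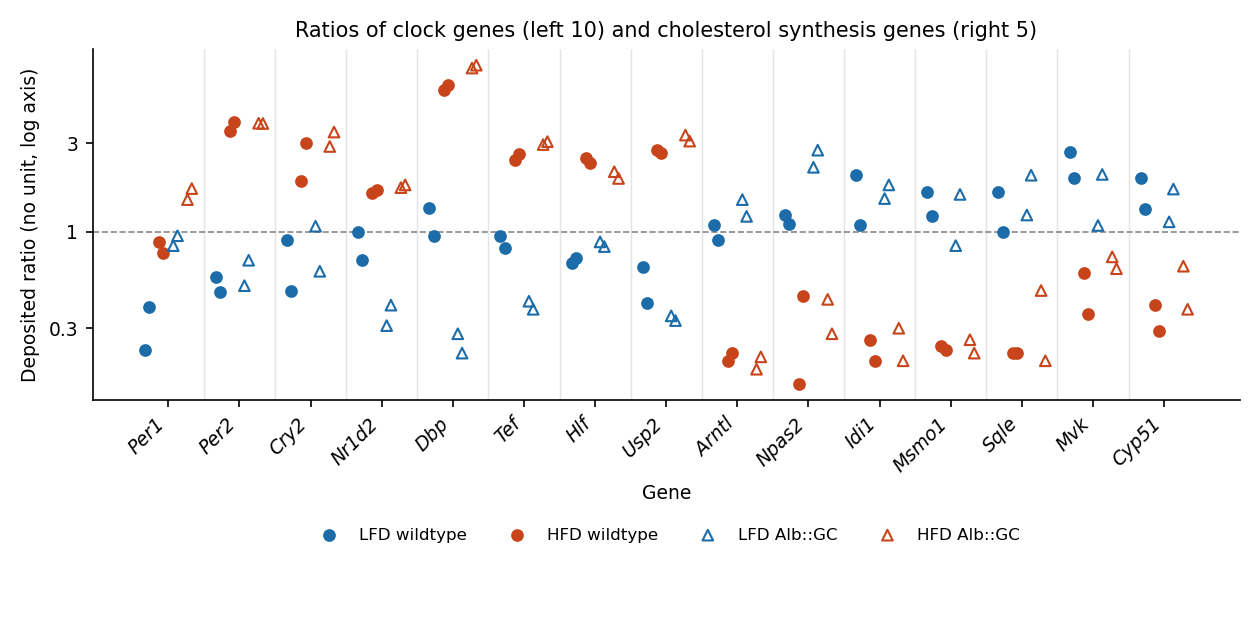
Deposited ratios (log axis, no unit) of 10 clock genes and 5 cholesterol synthesis genes in the 8 diet arrays, drawn as in the plot of lipid genes. In Per2, Dbp, Tef, Hlf and Usp2 every HFD array of both genotypes lies above every LFD array, and in Arntl, Npas2 and all 5 cholesterol genes every HFD array lies below, Arntl at 0.18 to 0.22.

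Acute phase genes rose in part, and complement and clotting genes leaned down. Of 29 acute phase genes 7 rose and 1 fell (24.1% and 3.45%). Lcn2, a siderophore-binding protein of injured liver and neutrophils, went from 0.14 and 0.11 to 5.44 and 5.77 (5.02 ± 0.73, adjusted p = 0.0136). Orm2 and Orm3, the orosomucoids, went from 1.12 and 0.52 to 8.43 and 9.32 and from 1.57 and 0.54 to 9.17 and 10.29, and Saa1, serum amyloid A, from 0.64 and 0.37 to 3.79 and 3.95. Steap4, a metalloreductase, went from 0.69 and 0.64 to 2.67 and 2.85 (1.98 ± 0.12, adjusted p = 0.0029) and held whichever array was left out. Lifr, the receptor of leukemia inhibitory factor, fell by 2.44 and 1.47 on the log2 scale at 2 probe sets and stood at 0.31 at another. Complement and coagulation held 7 lower and 3 higher of 35 (20% and 8.57%, against 7.47% and 5.73% of all genes). C8b, of the membrane attack complex, went from 1.48 and 1.03 to 0.19 and 0.22 (-2.34 ± 0.27, adjusted p = 0.00779), and the clotting factor F11 from 1.47 and 1.0 to 0.31 in both HFD arrays (-1.81 ± 0.25). Hc, complement C5, rose by 1.26 ± 0.14. Among apolipoproteins Apoa4 rose from 0.21 and 0.22 to 1.8 and 1.81 (2.81 ± 0.39, adjusted p = 0.012) and Apom fell by 1.41 ± 0.22 on the log2 scale. That was 1 each of 22 (4.55% each way). The acute phase list kept 1 higher member without either HFD array and 5 and 4 without an LFD array, and the complement list 0 lower, then 3 and 5.

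Markers of blood and immune cells moved beside these genes. Of 11 neutrophil markers 4 rose and none fell, 36.4% against 5.73% of all genes. S100a8 and S100a9, the calprotectin subunits, went from 0.36 and 0.92 to 5.4 and 4.6 and from 0.56 and 0.76 to 4.5 and 3.35, and Csf3r and Ngp rose by 1.59 and 0.74. The summed ratio of the 11 was 9.21 and 11.72 on LFD and 20.18 and 16.59 on HFD, and S100a8 and S100a9 held much of the HFD sums. Among the 11 the median difference was 0.11, and 4 lay below 0, the lowest at -1.49. Of 26 macrophage markers 5 rose (Laptm5, with other probe sets at 0.03 and 0.67, Mpeg1, Cybb, Itgam and Lyz2, by 0.83 to 1.56) and none fell, with sums of 24.1 and 25.37 against 33.56 and 35.14. The Kupffer cell markers Clec4f and Adgre1 stood at -0.20 ± 0.24 and 0.36 ± 0.19 and did not pass. Of 15 endothelial markers Vwf and Lyve1 rose, of 13 stellate cell markers Col3a1, with another probe set at -0.57, and Dcn, and of 5 erythroid markers Alas2, from 1.11 and 0.98 to 3.99 and 5.21. Thy1 fell among 21 lymphocyte markers (4.76%, against 7.47% of all genes). The shares higher were 19.2% for macrophage, 13.3% for endothelial, 15.4% for stellate and 20% for erythroid markers, against 5.73% of all genes. In the same order 8, 5, 5 and 2 members lay below 0, and the medians were 0.31, 0.25, 0.18 and 0.02. The erythroid share rests on Alas2 alone. The part of these cells in the acute phase and lipid results was not tested. Without either HFD array none of the macrophage, neutrophil, endothelial and stellate markers passed, and without LFD replicate 1 no neutrophil marker did.

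Other inflammatory and tissue lists moved both ways. Cxcl1, a neutrophil-attracting chemokine, went from 0.37 in both LFD arrays to 5.35 and 6.43 (3.82 ± 0.16, adjusted p = 0.002). Vcam1, an adhesion molecule, also rose, with another probe set at -0.27, and Ccl9 fell, out of 21 chemokine and adhesion genes (9.52% higher and 4.76% lower). Interferon genes gave 0 higher and 3 lower of 29 (10.3% lower), with Ifi47 going from 1.81 and 1.85 to 0.69 in both HFD arrays. Antigen presentation gave 1 higher of 13 (7.69%), H2-Eb1. These shares were near those of all genes, 7.47% lower and 5.73% higher. Of 34 matrix genes 6 rose and 1 fell (17.6% and 2.94%, against 5.73% and 7.47% of all genes), with Mmp12, macrophage elastase, from 0.43 and 0.5 to 3.87 and 3.16 (2.79 ± 0.49). That list kept 1 higher member without LFD replicate 1 and none without any other array. In the junction list 4 fell and 1 rose of 20 (20% and 5%), with E-cadherin (Cdh1) going from 2.49 and 1.15 to 0.45 and 0.35. The EGF receptor Egfr was the 1 of 10 in its family to fall (10%), from 1.29 and 1.05 to 0.31 and 0.33 (-1.72 ± 0.22). Of its 4 other probe sets 1 also fell while 3 stood at -0.76 to -0.37. Growth arrest genes split, with Pmaip1, Gadd45a and Ccng1 up and Gadd45g, Gadd45b and Sesn1 down of 21 (14.3% each way). Other probe sets of Sesn1 stood at 0.22 and 0.48, and those of Gadd45b at -0.75 and -0.11 without passing. Gadd45g went from 2.38 and 1.41 to 0.29 in both HFD arrays. Immediate early genes gave 1 higher and 2 lower of 25 (4% and 8%), and cell cycle genes 1 and 2 of 36 (2.78% and 5.56%), near or below the shares of all genes. Of 25 hepatocyte transcription factors 5 rose (20%), among them Esr1, the oestrogen receptor, from 0.29 and 0.49 to 2.96 and 2.18 (2.60 ± 0.29, adjusted p = 0.00755).

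Ribosomal protein and respiratory genes held more lower than higher members. Of 42 ribosomal protein genes 11 fell and none rose, 26.2% against 7.47% of all genes, and 36 lay below 0 with a median of -0.47 against -0.18 for all genes. Rpl8 went from 1.16 and 1.14 to 0.53 and 0.56 (-1.01 ± 0.23, adjusted p = 0.0358), which was the second largest fall of the list after Rps6 at -1.03, whose other probe set stood at 0.52. Mitochondrial ribosomal proteins held 10 lower and 1 higher of 67 (14.9% and 1.49%), with a median of -0.35. Oxidative phosphorylation held 12 lower and 1 higher of 71 (16.9% and 1.41%), with a median of -0.33. Atp5e, a subunit of ATP synthase, went from 1.55 and 1.5 to 0.75 and 0.7 (-1.02 ± 0.17), whereas Ndufs5 of complex I rose from 0.99 and 1.01 to 3.59 and 3.76. Sdhc fell by 1.09 on the log2 scale at the probe set used and stood at 0.26 at another. After quantile normalization the lower counts of the 3 lists were 2, 5 and 6. Without either HFD array none of the 3 lists had a member past the threshold, and without LFD replicate 1 they had 1, 0 and 0 lower members. Translation factors and tRNA synthetases had a median of -0.18, as all genes did. Proteasome genes gave 4 lower and 1 higher of 37 (10.8% and 2.7%) and mitochondrial carriers 2 and 1 of 24 (8.33% and 4.17%). Translation factors gave 1 lower of 34 (2.94%), tRNA synthetases 2 of 20 (10%), and amino acid and urea cycle genes 1 of 28 (3.57%). Splicing factors gave 3 higher of 34 (8.82%). Over all genes 7.47% were lower and 5.73% higher.

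ISR targets moved at about the rate of all genes, and ER folding genes held more higher members. Of 33 known ISR targets 1 rose and 3 fell, 3.03% and 9.09%, near the 5.73% and 7.47% of all genes, with a median of -0.20 against -0.18. Ddit3 (CHOP) was at 0.81 and 0.9 on LFD and 0.74 and 0.93 on HFD, Trib3 at 1.57 and 0.95 against 0.82 and 0.92, and Asns at 0.99 and 1.24 against 0.59 and 0.66, none past the threshold (adjusted p = 0.934, 0.277 and 0.0521). Cebpb rose by 0.61 ± 0.16, with another probe set at 0.01. The members that fell were the amino acid transporter Slc7a1, the secreted Stc2 and the synthetase Sars. Among 33 ER folding genes 5 rose and none fell, 15.2% against 5.73% of all genes, with a median of 0.17. Hsp90b1 (GRP94) went from 0.55 and 0.51 to 1.5 and 1.56 (1.45 ± 0.24), Sel1l, of ER-associated degradation, from 0.56 and 0.66 to 2.06 and 2.2 (1.73 ± 0.18), and Hspa5 (BiP) from 0.69 and 0.57 to 1.05 and 1.11 (0.74 ± 0.17, adjusted p = 0.0405), with another probe set at 0.18. None of the 5 passed without either HFD array. ER translocation genes held 3 higher and 3 lower of 37 (8.11% each way) and the eIF2 machinery 1 and 2 of 16 (6.25% and 12.5%). Of 25 heat shock genes Hspb1, Hspa4l and Hspa8 rose (12%), and Hspa1a and Hspa1b, the inducible HSP70 genes, fell (8%). Hspa1a went from 1.46 and 1.28 to 0.05 and 0.03 (-3.99 ± 0.44, adjusted p = 0.00731).

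Genes that AP20187 changed at least 2-fold in TTR::Fv2E-PERK liver, which shares no array with the diets, were then followed. Of 669 that it raised, 97 rose on HFD (14.5%, against 5.73% of all genes) and 34 fell (5.08%, against 7.47%), with a median of 0.19. Of 628 that it lowered, 97 fell on HFD (15.4%) and 36 rose (5.73%), with a median of -0.28. The 97 genes raised by both were 13.7% of the genes that rose on HFD, and the 97 lowered by both were 10.5% of those that fell. Clock genes were among those that moved alike in both. With AP20187, Per2, Dbp, Usp2 and Cry2 stood at 2.98, 3.34, 2.71 and 2.52 and Npas2 at -3.91, while Arntl stood at 0.09. The part of collection hour in this overlap was not tested. Each gene's probe set was chosen for its small spread in the TTR::Fv2E-PERK arrays. The AP20187 calls thus rest on a spread selected to be low.

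**Figure D4:**
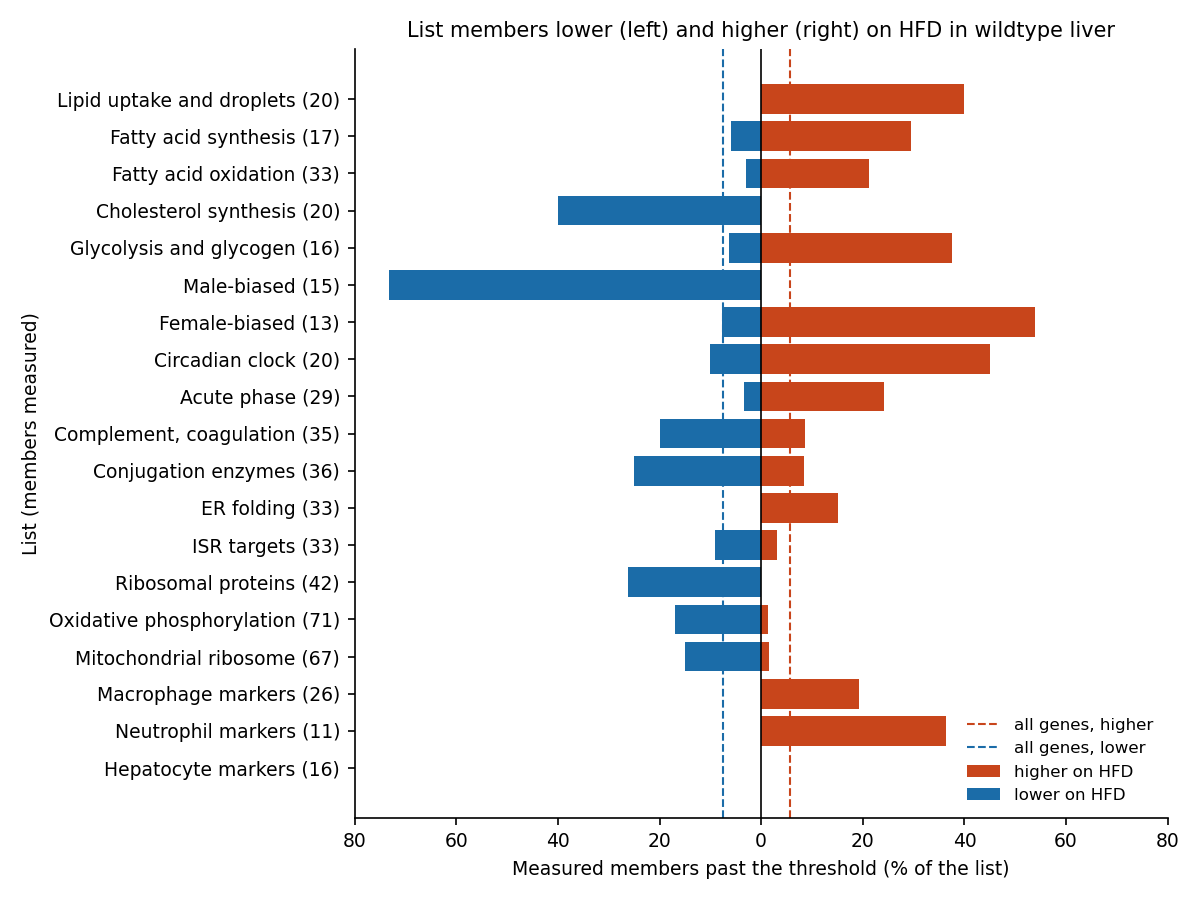
Share of each list's measured members (number in parentheses) that passed the threshold on HFD in wildtype liver, with higher members drawn to the right in red and lower members to the left in blue, in percent of the list. The dashed lines mark the shares over all genes, 5.73% higher and 7.47% lower. The longest bars are those of the male-biased list, 73.3% lower, and the female-biased list, 53.8% higher. The lists were chosen with earlier results of these data known, so the bars are descriptions only.

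Beyond the lists, large changes were also seen in genes of other kinds. B4galnt1, the enzyme that starts complex gangliosides, went from 0.18 and 0.23 to 22.41 and 23.27 (6.50 ± 0.34, adjusted p = 0.00262), while another of its probe sets stood at 0.25 (adjusted p = 0.77), so the probe sets of this gene disagree. Nnmt, nicotinamide N-methyltransferase, went from 0.49 and 0.3 to 7.2 and 8.92 (4.21 ± 0.31, adjusted p = 0.00367), and held whichever array was left out. Snhg11, a long noncoding RNA, went from 0.16 and 0.24 to 3.44 and 3.9, Tfap2d, a transcription factor, from 0.15 and 0.1 to 2.15 and 3.92, and Pdzrn3, a ubiquitin ligase, from 0.42 and 0.1 to 6.08 and 5.01. Cask, a scaffold of synapses, rose by 5.23 ± 0.81, with its 2 other probe sets at 0.84 and 0.01, and Gdap10 rose by 4.09 ± 0.58. Among the falls, Cela1, a pancreatic-type elastase, went from 2.12 and 1.76 to 0.17 and 0.23 (-2.997 ± 0.19, adjusted p = 0.00314). It was the 1 of 10 exocrine pancreas markers past the threshold (10%, against 7.47% of all genes). Of the 10, 9 lay below 0 with a median of -0.78, and the summed ratio of the list was 10.23 and 11.7 on LFD and 6.67 and 5.73 on HFD. Shcbp1, Krtap15, Cdh16, Calb2, Gp9, Crtac1 and Ildr1 fell by 3.39 to 4.60 on the log2 scale with arrays that did not overlap. Fmn2, Sema3e, Ptafr and Gpr85 fell at the probe set used, at -3.58 for Fmn2 to -3.42 for Gpr85, and other probe sets that did not pass stood at -0.78 for Fmn2, 0.50 and -1.31 for Sema3e, 1.66 for Ptafr and 0.59 and 2.88 for Gpr85.

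Alb::GC mice gave the same diet contrast in other arrays. There 428 genes were higher on HFD (3.45%) and 292 lower (2.36%). Of the 710 genes that rose in wildtype, 621 were above 0 in Alb::GC, 254 also passed there (35.8%) and 6 passed in the other direction. Of the 926 that fell, 827 were below 0, 136 passed (14.7%) and 4 passed the other way. The standard errors of both genotypes came from the same estimate of spread. A gene with a small spread was thus favoured to pass in both, so the 254 and 136 are not independent repeats. The median of all genes in Alb::GC was -0.072, and the share of all genes above or below 0 there is not given. Among the 158 genes raised at least 4-fold in wildtype, the median was 2.74 in wildtype and 1.33 in Alb::GC, where 46 were also raised at least 4-fold and 58 less than 2-fold. Among the 138 lowered at least 4-fold, the medians were -2.55 and -1.34, with 46 and 56 genes. Those genes were chosen for their size in wildtype, so a smaller value elsewhere is no sign of a difference. The test of the difference itself, an interaction term in limma, passed for 0 of 12393 genes, with 1310 at an unadjusted p under 0.05. No difference between the genotypes is therefore shown for any single gene, and with 2 arrays a group this does not show that the genotypes respond alike.

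The genes closest to the threshold in that test were of several kinds. Hsd3b5 was at 1.05 and 1.36 on LFD and 0.95 and 1.26 on HFD in Alb::GC (-0.12), against -5.06 in wildtype, a difference of 4.94 (adjusted p = 0.089). Cidec was at 0.88 and 0.56 against 0.92 and 0.89 in Alb::GC, a difference of -3.63, and Cela1 at 1.72 and 1.65 against 1.28 and 1.19, a difference of 2.56 (adjusted p = 0.089 for both). Slc22a29, an organic anion transporter, went from 0.94 and 1.06 to 10.6 and 11.21 in wildtype and stood at 1.07 and 1.45 against 1.34 and 0.77 in Alb::GC (adjusted p = 0.11). With a single variance prior Hsd3b5 passed (0.0379), and without the third of probe sets with the largest spread Hsd3b5, Cela1, Tceal8 and Vegfb did. Side by side, Cidea was at 6.96 in wildtype and 1.44 in Alb::GC, Cd36 at 4.42 and 0.74, Pparg at 2.02 and -0.47, Lcn2 at 5.02 and -0.60 and Cyp2b9 at 4.28 and 1.08, with adjusted p of the difference between 0.139 and 0.347. Other genes were alike in size. B4galnt1 was at 6.50 and 6.42, Nnmt at 4.21 and 4.18, Per2 at 2.73 and 2.59, Hspa1a at -3.99 and -3.87, Idi1 at -2.47 and -2.52 and Igfbp1 at -2.70 and -2.85. The medians of the male-biased and female-biased lists stood at -0.83 and 3.05 with the wildtype genotype, against 0.07 and 1.08 with Alb::GC, and those of the clock and cholesterol lists 0.71 and -0.96 against 0.73 and -1.001.

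**Figure D5:**
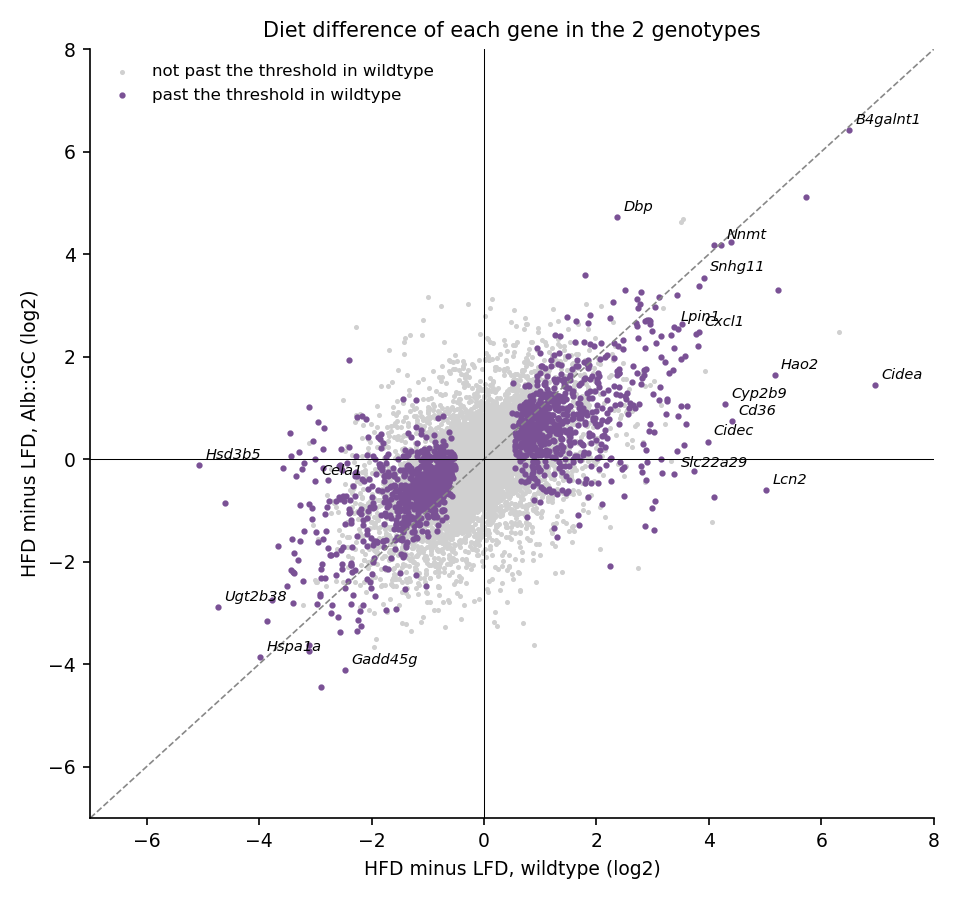
Diet difference (HFD minus LFD, log2) of each of 12393 genes in wildtype (horizontal) and Alb::GC liver (vertical), with purple points past the threshold in wildtype and the dashed line marking equal differences. B4galnt1 and Nnmt lie near the line, while Cidea (6.96 and 1.44), Lcn2 (5.02 and -0.60), Cidec (3.98 and 0.34) and Hsd3b5 (-5.06 and -0.12) lie far from it.

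The tissue label was checked as far as ratios allow. None of 16 hepatocyte markers passed, their summed ratio was 18.18 and 16.05 on LFD and 15.99 and 16.66 on HFD, and their median replicate SD in the 4 wildtype arrays was 0.129 on the log2 scale. It was 0.803 for 16 neuron markers and 0.538 for 13 skeletal muscle markers, of which none passed, as for 7 cholangiocyte markers. Of the cholangiocyte markers, Sox9 stood at -0.98 at the probe set used, while another probe set of it rose by 2.59 (adjusted p = 0.00833). Ratios hold no level, so presence of a transcript cannot be read from them, and the smaller spread of hepatocyte markers is a description only.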

How the data were processed

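The arrays were single-colour Affymetrix arrays of biotin-labelled liver RNA, and 4 of 16 enter the diet contrast in wildtype mice. The deposited values are linear ratios around 1 with 2 decimals, 1 per probe set and array; what the authors divided by, and the summary method, are unknown here, so no level or detection call can be read. All 16 value columns were matched to samples by their labels, and 64 control probe sets were left out of the tests. In LFD wildtype replicate 2 the source field names both genotypes, and its description, wildtype, was followed. The number of arrays limits the precision.

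The fit, in limma 3.58.1 under R 4.3.3, took group means of log2(ratio + 0.05) over the 8 diet arrays, with a variance prior that follows the mean. The added constant makes the change of low ratios look smaller. Calls are two-sided at a Benjamini-Hochberg adjusted p under 0.05 over 22626 probe sets, and adjusted p-values throughout are from this fit unless another is named. A gene stands by the probe set with the smallest spread in the TTR::Fv2E-PERK arrays. The fit was tested on simulated data. Figures were drawn with matplotlib 3.10.9.

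Named genes are the 15 largest rises and 15 largest falls whose arrays do not overlap, up to 6 called members of each of 54 lists (or the 2 with the smallest p-values), and the 5 smallest interaction p-values in each direction. The members and lists were chosen with earlier results of these data known. Further list members, namely Plin2, Plin3, Plin5, Srebf1, Acaca, Acly, Scd1, Acot4, Cpt1a, Ehhadh, Cyp4a14, Pck1, Nsdhl, Tm7sf2, Hmgcs1, Fdps, Fdft1, Igfals, Cish, Cyp2d9, Gstp1, Cyp4a12a, Trim24, Cyp2b13, Cyp2c37, Cyp7a1, Tef, Hlf, Per1, Nr1d2, Rora, Clec4f, Adgre1, Ddit3, Trib3 and Asns, were named after their values were seen. Alternatives were other added constants, centring, quantile normalization, a filter on spread, the 4 wildtype arrays alone, 1 variance prior, other choices of probe set, and leaving out each array.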

Additional observations from a re-analysis of the deposited data

Results flagged for a closer look

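In 15 of the genes examined, both HFD arrays lay on one side of both LFD arrays in wildtype and on the other side in Alb::GC mice. The difference between the 2 diet effects (Alb::GC minus wildtype, log2) was tested with limma's interaction term, and none of the 15 passed after adjustment over all probe sets. The adjusted p lay closest to the threshold for Tceal8 (-2.112) and Vegfb (-1.889), at 0.0887 for both. Vegfb, a growth factor that acts on vessels, had a diet difference of 0.77 on the log2 scale in wildtype, against -1.12 in Alb::GC mice, each past the threshold within its genotype. Gna14 (1.843), a G protein subunit, and Lsm7 (2.357), of the RNA splicing machinery, had an adjusted p of 0.089, and Nkain4 (4.35) one of 0.11. In these 3 the wildtype arrays fell and the Alb::GC arrays rose.

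Gclc, a subunit of the enzyme that starts glutathione synthesis, differed by -1.69 (adjusted p = 0.103), going from 1.08 and 1.26 to 2.25 and 2.16 in wildtype and from 1.71 and 1.52 to 0.89 and 0.92 in Alb::GC. Among metabolic genes the difference was -1.153 for Me1, 2.246 for Cyp2c54, 3.093 for Sult5a1 and 0.565 for Rgn, a calcium-binding protein of hepatocytes. Rgn did not pass in wildtype (-0.42, adjusted p = 0.0852). Among inflammatory genes it was -4.163 for Saa1, -3.948 for S100a8 and -3.2 for S100a9, where the Alb::GC arrays on LFD held 1 high value of 5.5 for Saa1. Among matrix genes it was -1.722 for Mmp14 and -1.141 for Col3a1. In wildtype the diet difference at another probe set was 0.03 for Mmp14 and -0.57 for Col3a1, neither past the threshold.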

How the results depend on the processing

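Constants of 0.01 and 0.2 and centring each array kept the gene counts within 1.5 times, and centring raised the share of higher genes among those called from 43.4% to 52.5%. After quantile normalization 537 genes and 848 probe sets were lower, against 926 and 1499. With only the 4 wildtype arrays 252 genes were higher and 115 lower, and 760 and 197 probe sets, a fit with fewer arrays behind its estimate of spread. Leaving out 1 array gave 12 to 508 higher and 5 to 194 lower genes, and 37 to 1275 higher and 10 to 331 lower probe sets, with the lowest values without an HFD array. The interaction passed for 4 genes without the third of probe sets with the largest spread, for 2 with 1 variance prior and for 1 with probe sets averaged, and for 0 under the other alternatives run.

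Of 220 named genes, 176 kept direction and call after quantile normalization, 89 with the wildtype arrays alone, and 115, 114, 23 and 17 without LFD replicate 1, LFD replicate 2, HFD replicate 1 and HFD replicate 2. With the probe set of highest mean the sign turned for Ptafr (1.655), Sdhc (0.255), Eif3i (0.095), Lifr (0.309), Sesn1 (0.48) and Sox9 (2.593), and with probe sets averaged for Gpr85 (0.017), Mcm2 (0.097) and Sox9 (0.806), because other probe sets of these genes enter. Only Sox9 passed in its turned direction, under both choices (adjusted p = 0.00833 and 0.0375). No paired analysis was possible because the replicate numbers follow accession order and pair no samples. The ratios carry no signal over background, so no limit from depth can be given.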
